A study of Rattus norvegicus with 7 samples.

Results

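The genes described here regulate or mark the epithelium of the lens or its change into fibre cells, and 10 were listed: Pax6, Foxe3, Pitx3, Six3, Mab21l1, Prox1, Maf, Sfrp1, Cdh1 and Npnt. They were chosen by symbol, as the transcript clusters (the probe groups of the array that stand for a transcript) whose entry in the platform table carried that symbol alone. Of the 10, 9 had such a cluster, each had exactly 1, and all 9 were among the 5168 genes tested (those that reached a log2 signal of 5 on at least 1 array) of 18166 named genes. Npnt, which encodes the basement membrane protein nephronectin, had no cluster under its symbol and was not analysed here.

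The lenses came from the Ihara Cataract Rat (ICR/Ihr), an inbred strain with hereditary cataract, and were of male animals according to the study's methods. Each of 7 arrays held the RNA of lens tissue of a different age, and the labels place the ages in stages. Lenses of 2 and 4 weeks had no cataracts, those of 8 and 10 weeks had cortical opacity, that of 12 weeks had posterior subcapsular opacity, and those of 14 and 18 weeks had nuclear opacity. All lenses were of the cataract strain, so the lenses without cataracts are younger animals of the same strain and not a control strain, and stage and age cannot be told apart. The sources used here do not say whether an array held the lenses of 1 animal or of several. P-values measure the spread between these arrays (within stages of mixed age, or around the line for the slope on age). That spread mixes differences of age and animal with technical ones, and the spread between animals of the same age was not measured. Values are log2 hybridization signals. With 1 array for each age, the small number of arrays sets how precise the values can be.

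The lens is a single tissue with a sheet of epithelial cells on its anterior face, which divide near the equator and turn into the elongated fibre cells that fill the lens. Pax6, Six3, Foxe3, Pitx3 and Mab21l1 are needed for the lens to form or for its epithelium to persist, and mutations of several of them cause small or opaque lenses in mice. Prox1 and Maf (c-Maf) act later, when epithelial cells become fibres and switch on crystallin genes. Sfrp1 encodes a secreted protein that binds Wnt ligands, and Cdh1 encodes E-cadherin, which joins epithelial cells to each other. Epithelium and fibres were not separated before RNA was extracted, and in such bulk tissue fewer cells of a type and less RNA per cell cannot be told apart.

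Maf was lower in lenses with nuclear opacity than in lenses without cataracts, and it was the only regulator of the 9 to pass the test in that comparison. Its log2 difference was -0.93 ± 0.12 (SE, n = 2 arrays each), a 1.9-fold lower signal with a 95% interval of 1.53- to 2.36-fold. Maf also fell with age over all 7 arrays, by 1.11 on the log2 scale over the 16 weeks covered. The other 8 regulators passed the test in none of the 5 comparisons made, which were those of cortical, posterior subcapsular and nuclear opacity with no cataracts, of nuclear with cortical opacity, and the slope on age. The background for these counts is that 6.10% of the tested genes passed in nuclear opacity (4.06% lower and 2.03% higher) and 8.69% in the age trend (5.03% lower and 3.66% higher), and against these shares 1 call among 9 genes does not set the group apart.

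**Figure D1:**
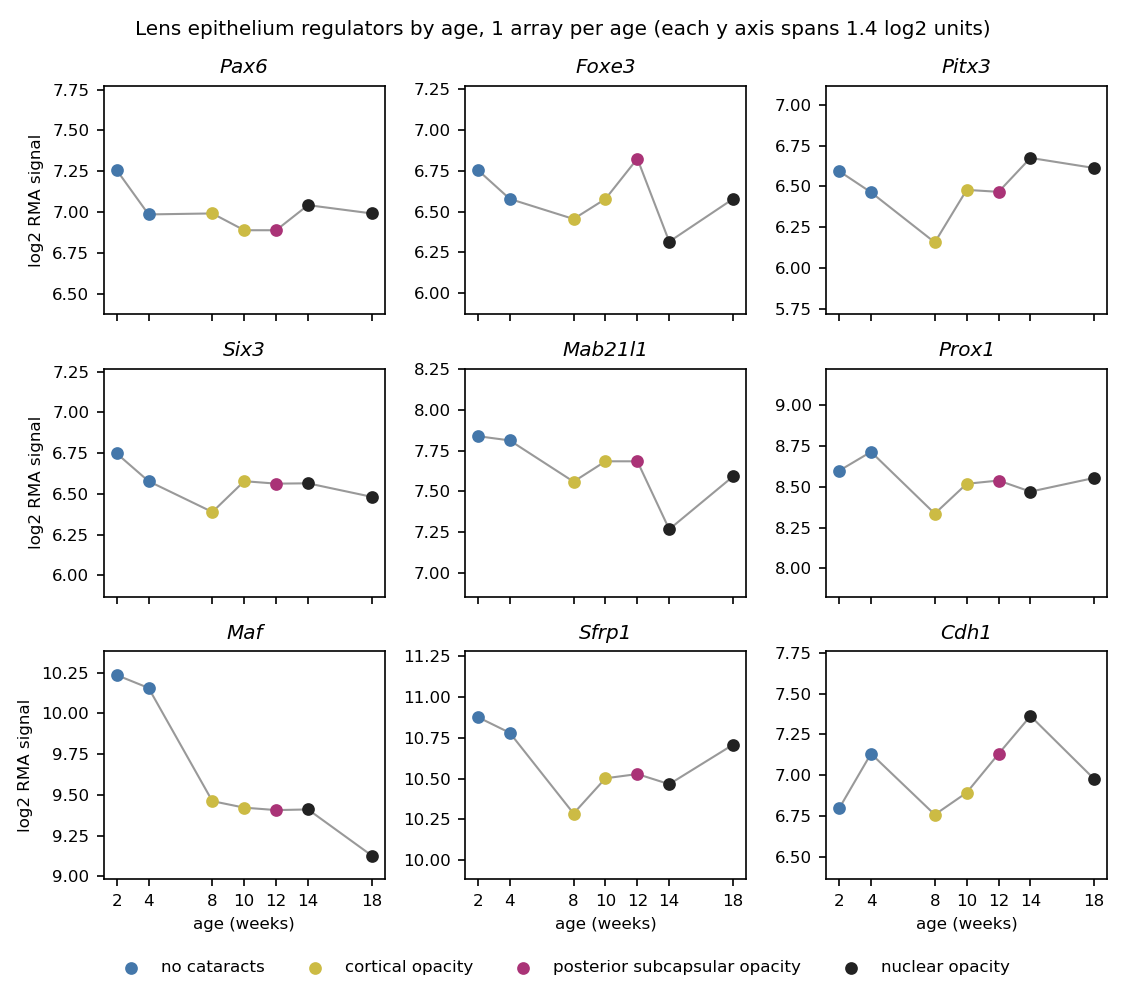
Log2 signal of the 9 measured regulators (y axis, each panel spanning 1.4 log2 units) against age in weeks (x axis), with 1 point per array coloured by stage. Maf lies at 10.24 and 10.16 at 2 and 4 weeks and between 9.13 and 9.46 from 8 weeks on, while the other regulators span at most 0.61 log2 units.

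Maf is a leucine zipper factor that drives crystallin genes and fibre elongation. Its log2 signal was 10.24 at 2 weeks, 10.16 at 4 weeks, 9.46 at 8 weeks, 9.42 at 10 weeks, 9.41 at 12 weeks, 9.41 at 14 weeks and 9.13 at 18 weeks. Both arrays without cataracts were high, the arrays of 8 to 14 weeks lay within a narrow band, and the 18-week array was the lowest. No array with an opacity reached the level of either array without cataracts. How many of all tested genes did the same was not counted, here or where it is said of other genes below. Between neighbouring ages the signal was 0.69 lower at 8 than at 4 weeks and 0.28 lower at 18 than at 14 weeks. The residual SD within stages was 0.12, and the arrays of 8, 10, 12 and 14 weeks differed from each other by less than that. That SD comes from the gaps between arrays of a stage (0.08 without cataracts, 0.04 in cortical and 0.28 in nuclear opacity). The difference between 14 and 18 weeks is thus part of it and cannot be judged against it. The step between 4 and 8 weeks stood out among all genes, since 98 of the tested genes (1.9%) had a deeper fall there, a description of 2 single arrays without a test. The whole range over age was 1.11 log2 units, or 2.15-fold, and 90.1% of tested genes had a smaller range.

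The mean of Maf was 9.27 in nuclear opacity and 10.20 in lenses without cataracts (limma, adjusted p = 0.0264). The slope on age was -0.0696 ± 0.0119 log2 units per week (SE, adjusted p = 0.0149), and Maf was the only regulator with an unadjusted p under 0.05 for its slope, which 25.9% of tested genes had. In cortical opacity the difference from no cataracts was -0.75 ± 0.12 (95% interval -1.06 to -0.44), which missed the threshold after adjustment (adjusted p = 0.114), as did the smallest adjusted p of any gene in that comparison, 0.113. In posterior subcapsular opacity the difference was -0.79 ± 0.15 (95% interval -1.17 to -0.41, adjusted p = 0.0887), and there too no gene passed (smallest adjusted p 0.0597). At an unadjusted p under 0.05, 828 of the tested genes (16.0%) passed in cortical opacity, Maf and Sfrp1 among them, and 21.9% in posterior subcapsular opacity, Maf alone among the regulators. Posterior subcapsular opacity is a single array, whose p-values borrow the spread of the other stages. Between nuclear and cortical opacity Maf differed by -0.17 ± 0.12 (95% interval -0.48 to 0.14), and the adjusted p was 0.629. A single gene (0.0193% of those tested, higher) passed there, and it was none of the regulators. Comparisons with no cataracts share the arrays of 2 and 4 weeks, so these differences are not independent of each other. The call in nuclear opacity was lost without any single array other than that of 12 weeks (adjusted p 0.0790 to 0.172, difference -1.07 to -0.79), and when dim genes were tested too (adjusted p = 0.112). The call of the slope was lost without the 2-week or the 4-week array (adjusted p 0.0913 and 0.0666) and when dim genes were tested too (adjusted p = 0.0678).

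**Figure D2:**
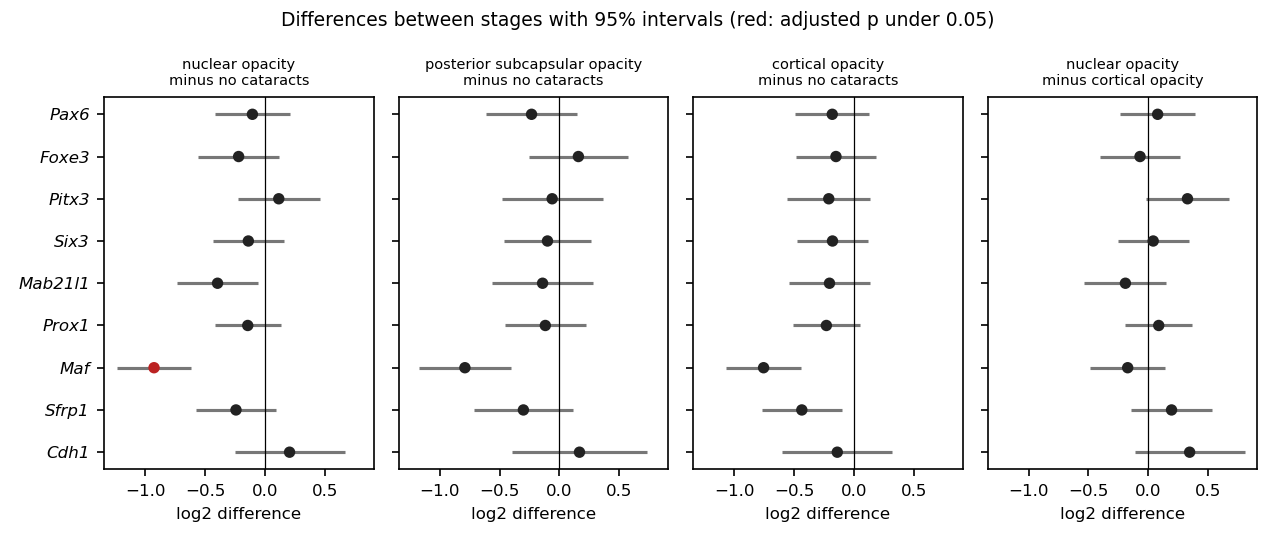
Log2 difference (x axis) of each of the 9 regulators (rows) in 4 comparisons of stages, with 95% intervals from limma as lines; a red point has an adjusted p under 0.05. Only Maf in nuclear opacity against no cataracts, at -0.93, is red. The intervals are not adjusted for the number of genes. Against no cataracts, those of Maf in cortical and posterior subcapsular opacity, Sfrp1 in cortical and Mab21l1 in nuclear opacity also stay below 0.

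Pax6, the paired-box factor that stands at the head of eye and lens development, varied little. Its log2 signal was 7.26, 6.99 and 6.99 at 2, 4 and 8 weeks, 6.89 at both 10 and 12 weeks, and 7.04 and 6.99 at 14 and 18 weeks. The 2-week array was the highest, and the 2 arrays of nuclear opacity lay inside the range of the 2 arrays without cataracts. The difference in nuclear opacity was -0.10 ± 0.12 (95% interval -0.42 to 0.21, adjusted p = 0.635), and without the 2-week array it was 0.03. Six3, a homeobox factor that acts with Pax6 in setting up the lens, had log2 signals of 6.75, 6.58, 6.39, 6.58, 6.56, 6.56 and 6.48 at the 7 ages in order. The 2-week array was again the highest and the 8-week array the lowest, and both arrays of nuclear opacity lay below both arrays without cataracts by a small margin. The difference in nuclear opacity was -0.14 ± 0.12 (95% interval -0.44 to 0.16, adjusted p = 0.508). The ranges of Pax6 (0.37) and Six3 (0.36) were among the smaller ones, since 24.7% and 23.0% of tested genes had a smaller range.

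Foxe3 is a forkhead factor made almost only in the lens epithelium, where it keeps cells dividing and undifferentiated. Its log2 signal was 6.76 at 2 weeks, 6.58 at 4 weeks, 6.46 at 8 weeks, 6.58 at 10 weeks, 6.83 at 12 weeks, 6.32 at 14 weeks and 6.58 at 18 weeks. The highest array, of 12 weeks, and the lowest, of 14 weeks, were neighbours in age, 0.51 log2 units apart, and the 4-, 10- and 18-week arrays held the same value to 9 decimals. Its difference in nuclear opacity was -0.22 ± 0.13 (95% interval -0.56 to 0.12, adjusted p = 0.36), and in posterior subcapsular opacity it was 0.16 with an adjusted p of 0.637. Foxe3 was the regulator whose 12-week array lay above both arrays without cataracts, but 18.9% of all tested genes did the same. Equal values on several arrays were common in these data, with 56.8% of all clusters holding the same value on at least 2 arrays. Among the regulators they also occurred in Pax6 (10 and 12 weeks, and 8 and 18 weeks), Six3 (4 and 10 weeks) and Mab21l1 (10 and 12 weeks).

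Pitx3, a homeobox factor whose loss gives the aphakia mouse its rudimentary lens, was lowest at 8 weeks. Its log2 signals were 6.59, 6.46, 6.16, 6.48, 6.47, 6.67 and 6.61 at the 7 ages in order. Both arrays of nuclear opacity lay above both arrays without cataracts and above both arrays of cortical opacity, and no other regulator was higher in nuclear opacity without overlap against no cataracts, which 21.6% of tested genes were. Against no cataracts the difference in nuclear opacity was 0.12 ± 0.14 (95% interval -0.23 to 0.46, adjusted p = 0.637). Against cortical opacity it was 0.33 ± 0.14 (95% interval -0.02 to 0.67, adjusted p = 0.47). The 8-week array lay 0.32 below that of 10 weeks, and without it the difference from cortical opacity was 0.16.

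Mab21l1, which is needed in mice for the lens placode to fold into a vesicle, had the next largest difference after Maf in nuclear opacity. Its log2 signal was 7.84 and 7.81 at 2 and 4 weeks, 7.56 at 8 weeks, 7.69 at both 10 and 12 weeks, 7.27 at 14 weeks and 7.59 at 18 weeks. Every array with an opacity lay below both arrays without cataracts, and the 14-week array was the lowest by 0.32 against that of 18 weeks. The mean was 7.43 in nuclear opacity and 7.83 in lenses without cataracts, a difference of -0.40 ± 0.14 (95% interval -0.74 to -0.06, adjusted p = 0.152). An unadjusted p under 0.05 was reached by 25.1% of all tested genes and by 2 of the 9 regulators, Maf and Mab21l1, of which Mab21l1 did not pass after adjustment. The slope on age was -0.0227 ± 0.0111 log2 units per week (adjusted p = 0.243).

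The promoter of Mab21l1 is shown because it was the only regulator whose window held the letters TAATCC, which bicoid-class homeobox factors such as Pitx3 bind. Windows of 250 bases before the start were taken from RefSeq on assembly GRCr8, where 7 of the 10 genes had an entry, and were searched on both strands. The sequence is that of chr2:142093368-142093617 on the plus strand, 5′ to 3′, and the capitals mark the match, which lies on the other strand and reads GGATTA here, 130 bases before the start.
Mab21l1: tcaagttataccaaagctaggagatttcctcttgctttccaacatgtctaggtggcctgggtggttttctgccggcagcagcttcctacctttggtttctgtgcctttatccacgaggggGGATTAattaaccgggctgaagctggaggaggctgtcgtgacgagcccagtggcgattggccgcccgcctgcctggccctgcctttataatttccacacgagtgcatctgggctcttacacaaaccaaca
Of 33469 promoters in the table, 6.3% held TAATCC in a window of this length. The letters TGCTGA, part of the element that Maf proteins bind, were found in 15.1% of promoters and in 0 of the 7 windows, and CAGGTG, an E-box that Snail and Zeb factors bind, in 15.9% and in 0 of 7. These are matches of letters in a short window and describe no binding. For Maf and Pax6 the window lay inside the annotated gene, and for Six3 and Npnt it overlapped the gene. The start used for these genes was thus not the outermost one. The window of Maf itself was rich in G and C (73.2%, with 27 CpG), against 53.6% and 9 CpG in Mab21l1 and a median of 51.2% G and C over all promoters.

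Prox1, a homeobox factor that mouse lens cells need to stop dividing and elongate into fibres, had log2 signals of 8.60, 8.71, 8.34, 8.52, 8.54, 8.47 and 8.55 at the 7 ages in order. All arrays with an opacity lay below both arrays without cataracts, the 8-week array lowest. The largest of its differences was that in cortical opacity, -0.23 ± 0.11 (adjusted p = 0.389), and in nuclear opacity it was -0.14 ± 0.11 (95% interval -0.42 to 0.13, adjusted p = 0.467). In contrast to Maf, whose slope on age passed the test, Prox1 had a slope of -0.0069 log2 units per week (adjusted p = 0.691), and the difference between the slopes was not tested.

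Sfrp1 was lowest at 8 weeks and was higher again on later arrays. Its log2 signals were 10.88 and 10.78 without cataracts, 10.29 and 10.50 in cortical opacity, 10.53 in posterior subcapsular opacity, and 10.47 and 10.71 in nuclear opacity. No array with an opacity reached either array without cataracts, and the 18-week array came nearest. The difference in cortical opacity was -0.43 ± 0.13 (95% interval -0.77 to -0.10, adjusted p = 0.228), a 1.35-fold lower signal. In nuclear opacity the difference was -0.24 ± 0.13 (95% interval -0.58 to 0.09, adjusted p = 0.318). The slope on age was -0.0134 log2 units per week (adjusted p = 0.582) and was 0.0005 without the 2-week array.

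Cdh1 was the most variable of the regulators within stages, with a residual SD of 0.22. Its log2 signals were 6.80 and 7.13 without cataracts, 6.76 and 6.89 in cortical opacity, 7.13 in posterior subcapsular opacity, and 7.36 and 6.98 in nuclear opacity. The highest array was that of 14 weeks and the lowest that of 8 weeks, and nuclear opacity and no cataracts overlapped. The difference in nuclear opacity was 0.21 ± 0.18 against no cataracts (95% interval -0.25 to 0.67, adjusted p = 0.528) and 0.34 ± 0.18 against cortical opacity (95% interval -0.12 to 0.80, adjusted p = 0.56). The arrays of 2 and 4 weeks, which share a stage, differed by 0.34, as much as the larger of these differences.

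The fitted differences of the 9 regulators were counted by sign, with no test of the group. Signs were not counted over all tested genes, for which only the median is given. In nuclear opacity 7 of 9 differences were below 0 and their median was -0.14, beside -0.05 over all tested genes. In cortical opacity all 9 were below 0 with a median of -0.20, beside -0.07. This was not particular to the regulators, since 11 of 11 tested genes of the cadherin junction list described below were also below 0 there. In the other lists described below it was 10 of 12 lens transcription factors, 13 of 17 epithelium genes and 9 of 11 Wnt genes. Of the partners of nephronectin it was 3 of 4, and of the fibre genes 14 of 22. In posterior subcapsular opacity 7 of the 9 regulators were below 0 with a median of -0.12, beside -0.13. Between nuclear and cortical opacity 6 of the 9 were above 0 with a median of 0.08, beside 0.02. The median of all genes in posterior subcapsular opacity was 0.03 after quantile normalization and 0.04 after centring each array on its median, and the medians of the regulators were then 0.06 and 0.05, so that the direction of this group there depends on the scaling. In cortical opacity the median of the regulators was -0.08 and -0.10 under these scalings, beside 0.03 and 0.04 over all genes.

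Overlap between the arrays of 2 stages was also counted. Both arrays of nuclear opacity lay below both arrays without cataracts for 5 regulators (Six3, Mab21l1, Prox1, Maf and Sfrp1), where 33.1% of all tested genes did. Both arrays of cortical opacity did so for 4 (Mab21l1, Prox1, Maf and Sfrp1), where 31.8% of genes did. The 12-week array lay below both arrays without cataracts for 6 (Pax6, Six3, Mab21l1, Prox1, Maf and Sfrp1), where 58.0% of genes did. Between nuclear and cortical opacity Maf was lower without overlap and Pitx3 and Cdh1 were higher, against 14.6% and 23.0% of genes.

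The 8-week array was low for most of the regulators. Between 4 and 8 weeks 8 of the 9 were lower, by 0.12 (Foxe3) to 0.69 (Maf), and Pax6 differed by 0.01, while 52.3% of all tested genes were lower. Sfrp1 was 0.49 lower, Prox1 0.38, Cdh1 0.37 and Pitx3 0.31. Between 8 and 10 weeks 7 of the 9 were higher again and Pax6 and Maf were not (-0.10 and -0.04), while 58.4% of tested genes were lower. Maf was thus the regulator that was low at 8 weeks and stayed at that level up to 14 weeks. The other steps were mixed. Lower were 7 of 9 regulators at 4 against 2 weeks (51.1% of tested genes), 3 at 12 against 10 weeks (55.2%), 4 at 14 against 12 weeks (36.3%) and 5 at 18 against 14 weeks (32.6%). The deepest of these differences were those of Foxe3 (-0.51) and Mab21l1 (-0.42) at 14 against 12 weeks, and of Cdh1 (-0.39) and Maf (-0.28) at 18 against 14 weeks. Each step compares 2 single arrays and was not tested. The same 8-week array enters both the fall from 4 weeks and the rise to 10 weeks. A low 8-week value was not particular to the regulators. Cdh2 and Jup, of the cadherin junction list described below, were also lowest there (8.52 and 7.37, against at least 8.745 and 7.735 on the other arrays). How many genes of that list were lowest at 8 weeks was not counted.

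**Figure D3:**
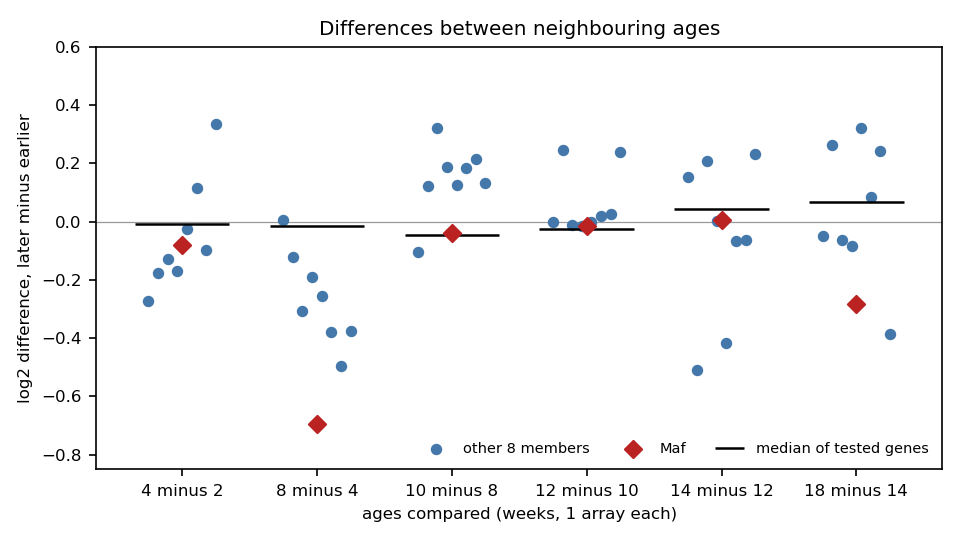
Log2 difference between neighbouring ages (y axis, later minus earlier array) for Maf (red diamond) and the other 8 regulators (blue points), with the median of all tested genes as a black line. Between 4 and 8 weeks, 8 of 9 regulators lie below 0, and between 8 and 10 weeks, which shares the 8-week array, 7 of 9 lie above it.

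The genes whose profile over the 7 arrays lay nearest to that of Maf were Plagl2, Ubl7 and Hsf4, by the root mean square difference of log2 values after each gene was centred on its own mean (0.08, 0.08 and 0.09 log2 units). They were picked for their likeness to Maf, so their values are a description. Hsf4 is a heat shock factor of the lens that is mutated in hereditary cataracts of humans and mice, and it was also on the list of lens transcription factors. Its log2 signal was 8.41 and 8.29 at 2 and 4 weeks, 7.78 and 7.81 at 8 and 10 weeks, 7.69 at 12 weeks, and 7.60 and 7.26 at 14 and 18 weeks. Like Maf it had a wide gap between 4 and 8 weeks and its lowest value at 18 weeks. Plagl2, a zinc finger factor, was 6.30 and 6.09 without cataracts and 5.02 at 18 weeks, and Ubl7, a protein with a ubiquitin-like domain, was 9.17 and 9.15 without cataracts and 8.22 at 18 weeks. Among the neighbours of the other regulators, Wnt7a, a Wnt ligand, was second nearest to Sfrp1 (0.07 log2 units). The nearest to Pax6 was Rad23b, to Foxe3 Gxylt1, to Pitx3 Brd2, to Six3 Sfxn1, to Mab21l1 Slc41a2, to Prox1 Dnajc6, to Sfrp1 Pou2f1 and to Cdh1 Atf7, at 0.02 to 0.07 log2 units.

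**Figure D4:**
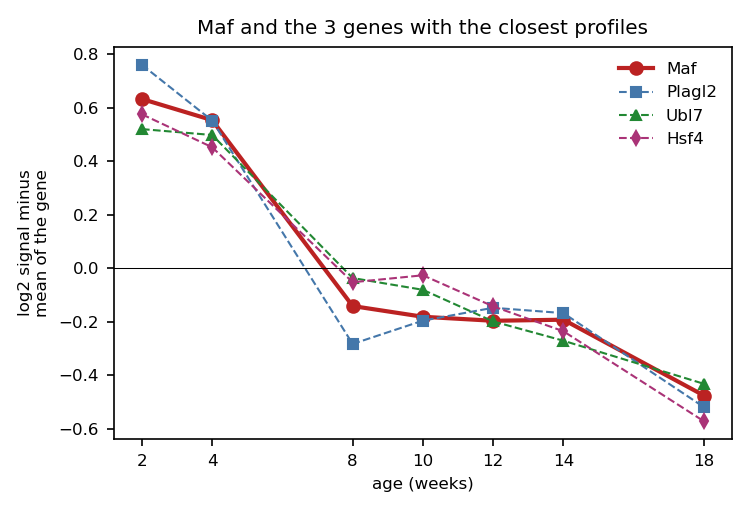
Log2 signal minus the mean of each gene over the 7 arrays (y axis) against age in weeks (x axis) for Maf and the 3 genes with the nearest profile. All 4 genes lie above their mean at 2 and 4 weeks and below it from 8 weeks on, with the lowest value at 18 weeks.

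Other genes of the lens programme were set beside the regulators. Like that of Maf, their calls in nuclear opacity rest on few arrays, since no gene of all those tested passed there when the 2-, 4-, 14- or 18-week array was left out. Of 24 other lens transcription factors 21 were measured and 12 tested, and in nuclear opacity 2 fell and none rose against no cataracts, with a median difference of -0.22, beside 4.06% lower and 2.03% higher calls and a median of -0.05 over all tested genes. Both that fell also fell with age. Etv5, a target and mediator of fibroblast growth factor signalling, had log2 signals of 5.53 and 5.08 at 2 and 4 weeks, 4.62 and 4.45 at 8 and 10 weeks, 4.71 at 12 weeks, and 4.08 and 3.87 at 14 and 18 weeks. All arrays with an opacity lay below the arrays without cataracts, and the difference in nuclear opacity was -1.33 ± 0.18 (adjusted p = 0.0264). It was tested only because of the arrays without cataracts, since all later arrays were under the limit of 5, and at a limit of 6 it would not be tested. Its call is therefore no support for the list, and without it 1 gene of the list fell. Meis1, Lhx2 and Six6 likewise reached 5 on the 2-week array alone (5.25, 5.126 and 5.225). The median of the list thus partly reflects the filter and is no support either. Hsf4 differed by -0.92 ± 0.14 (adjusted p = 0.0315). Gata3, which fibre cells of the mouse lens need to leave the cell cycle, differed by -0.66 ± 0.14 (adjusted p = 0.0591).

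Of 18 other genes of the lens epithelium 17 were tested, and in nuclear opacity 3 fell and 1 rose, with a median of -0.09 beside -0.05 over all tested genes, of which 4.06% fell and 2.03% rose. Those that fell carry nutrients or signals. Slc2a1, the glucose transporter GLUT1, had a difference of -0.76 ± 0.12 (adjusted p = 0.0346), Slc38a3, a glutamine transporter, one of -0.86 ± 0.14 (adjusted p = 0.0338), and Jag1, a Notch ligand, one of -0.48 ± 0.09 (adjusted p = 0.0477). The call of Jag1 was lost after quantile normalization (-0.39, adjusted p = 0.0719) and after median centring (-0.41, adjusted p = 0.0667). Slc2a1 was 9.40 and 9.12 at 2 and 4 weeks and 8.46 to 8.72 on the later arrays, so that all arrays with an opacity were lower, as with Maf. Sulf1, which trims heparan sulfate outside the cell, rose by 1.24 ± 0.18 (adjusted p = 0.0307), with log2 signals of 5.65 and 5.50 in nuclear opacity, against 4.08 and 4.60 in lenses without cataracts. Sulf1 was tested only because of the arrays of nuclear opacity, since the other 5 arrays were under 5, and its call is no support for the list. Bmp4 and Bmp7 reached 5 on the 2-week array alone (6.56 and 5.56), so they were tested only through a lens without cataracts.

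The list for Sfrp1 was the Wnt pathway, with 28 genes listed, 27 measured and 11 tested, and none rose or fell in any of the 5 comparisons. In nuclear opacity 6 were below and 5 above 0, with a median of -0.18 beside -0.05 over all tested genes. Tcf7l2, a transcription factor of the pathway, had a difference of -0.84 ± 0.21 (adjusted p = 0.0802), but it reached 5 on the 2-week array alone (5.06) and lay between 3.78 and 4.58 on the others, so that it was tested only through a lens without cataracts. For Cdh1 the list was the cadherin junction with the repressors of E-cadherin (17 listed, 16 measured, 11 tested), where again none passed in any comparison. On the deposited scale the median of this list was -0.20 in cortical opacity against no cataracts, beside -0.07 over all tested genes and -0.14 for Cdh1 itself. In nuclear against cortical opacity, which shares the arrays of cortical opacity, it was 0.13, beside 0.02 over all tested genes and 0.34 for Cdh1. Zeb1, a gene of this list, was tested only through the arrays of nuclear opacity (5.02 and 5.14, against 4.73 to 4.85 on the others). Its difference there (0.29) thus partly reflects the filter and is no support for the list. Cdh2, which encodes N-cadherin, the cadherin of epithelium and fibres, differed by 0.06 in nuclear opacity against no cataracts. The largest difference of the list there was that of Nectin3, -0.68 ± 0.15 (adjusted p = 0.0668). Of the partners of nephronectin, 15 were listed and 4 tested, none passed in any comparison, and the median in nuclear opacity was 0.17 beside -0.05 over all tested genes (Itgb1 -0.05 and Itga6 0.22).

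Fibre genes, many of them under Maf and Prox1, made up the last list (32 listed, 22 measured and tested). In nuclear opacity 3 fell and none rose, beside 4.06% lower and 2.03% higher calls over all tested genes, and the median was -0.31 beside -0.05. Those that fell were γ-crystallins. Crygn differed by -2.14 ± 0.19 (adjusted p = 0.0147) and Crygc by -0.79 ± 0.14 (adjusted p = 0.0416). Cryge had log2 signals of 6.80 and 2.90 in nuclear opacity, against 11.01 and 11.48 in lenses without cataracts, and the 18-week array was under 5. Its fitted difference was -6.39 ± 1.25 (adjusted p = 0.0497), but it was -4.44 without the 18-week and -8.35 without the 14-week array, neither of which passed (adjusted p 0.117 and 0.113). Cryge and Crygf are near-identical copies whose signals the array may not separate. With age 5 fibre genes fell (Crygb, Crygc, Cryge, Crygf and Crygn) and Lgsn rose, beside 5.03% lower and 3.66% higher calls over all tested genes. Crygn had log2 signals of 11.96 and 11.73 at 2 and 4 weeks, 10.81 and 10.35 at 8 and 10 weeks, 10.13 at 12 weeks, and 9.61 and 9.80 at 14 and 18 weeks. Like Maf it was high in both lenses without cataracts, and its signal was also lower at 14 than at 8 weeks, between which Maf was level.

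The tissue label was checked with marker genes. Of 5 lens markers 3 were measured (Mip, Lim2 and Bfsp1), and their mean log2 signal lay between 11.77 and 12.24 on all arrays, 11.77 and 11.84 in nuclear opacity and 12.24 and 12.04 in lenses without cataracts. Markers of photoreceptors, other retina cells, cornea, immune cells, blood, endothelium and muscle had list means of at most 3.94. That highest mean was of endothelium at 2 weeks, against 2.82 to 3.21 on the other arrays. Of the single genes in these lists only Krt13 reached 5 (4.46 to 5.21). The 2-week array stood apart in markers of the neighbouring ciliary body and zonule (6 of 7 measured, mean 6.88, against 5.83 at 4 weeks and 4.25 to 5.31 later). It did so too in markers of pigment cells (7 of 7 measured, mean 4.08, against 2.26 to 2.56 on the other arrays). Among these, Tyrp1 was 7.62 at 2 weeks, while Slc45a2 and Rpe65 were not raised there (2.40 and 1.41). The regulators with their highest value on the 2-week array were Pax6 and Six3, which the ciliary body also expresses, and Mab21l1, Maf and Sfrp1. How many of all tested genes were highest on that array was not counted. Without it the difference of Maf in nuclear opacity was -0.89 and missed the threshold (adjusted p = 0.172), and ciliary markers were also higher at 4 weeks than on every later array. The part of these cells in the values at 2 and 4 weeks was not tested.

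**Figure D5:**
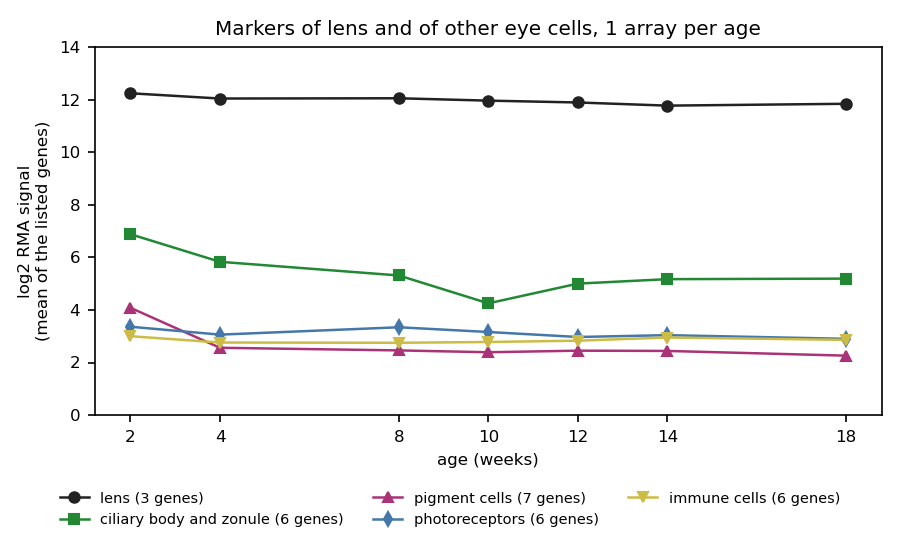
Mean log2 signal (y axis) of marker genes of lens and of 4 other cell types or tissues against age in weeks (x axis), with 1 array per age. Lens markers stay between 11.77 and 12.24, while ciliary body and pigment cell markers have their highest means, 6.88 and 4.08, at 2 weeks.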

How the data were processed

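Lens RNA was measured on 7 Affymetrix arrays of the type GeneChip Rat Gene 2.0 ST. The deposited values are log2 signals that the authors normalized together by RMA, and they were used as deposited. Because a signal includes background, fold changes of dim genes are understated. The labels speak of lenses taken from a culture medium without describing a culture. Of 36685 clusters, 18511 carried 1 symbol, 575 several and 17599 none in the platform table. Symbols were updated by Entrez identifier to RefSeq (GRCr8; 18394 matched, 117 kept), the cluster with the highest mean was taken for each gene, and genes reaching log2 5 on at least 1 array were tested, as in the filter of the study's methods. The same methods name no test for these arrays.

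Stages were compared in limma 3.58.1 (R 4.3.3; lmFit, contrasts.fit, eBayes) by fitting the mean of every stage at once, which left 3 residual degrees of freedom (moderated, 5.37), and age by a linear slope with 5 (moderated, 7.90). The 12-week stage has 1 array, which is assumed to vary like the others. P-values are two-sided and were adjusted by Benjamini-Hochberg over 5168 genes, with a threshold of 0.05. The code was tested on simulated data. Alternatives covered the filter, cluster choice, scaling, prior, array weights, form of age and each array left out. The members and all gene lists were chosen with earlier results of these data known. All 10 members are named, and from each further list the genes that passed and at most 4 others with the largest differences. Cdh2, Zeb1 and Six6 are named outside this rule. Promoters came from RefSeq, searched only in the 250 bases before the start, although the bases after it were also planned for the search. Figures were drawn with matplotlib 3.10.9.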

Additional observations from a re-analysis of the deposited data

How the results depend on the processing

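No paired analysis was possible because the labels give no replicate numbers and each age has 1 array. The number of regulators called in nuclear opacity against no cataracts was 1, and 0 when dim genes were tested too. Over left-out arrays it was 0 to 1, and 1 only without the 12-week array. In the age trend it was 1, 0 with dim genes tested, and 0 to 1 over left-out arrays, with 0 without the 2-week or the 4-week array. Maf kept its sign in all 14 alternatives of each of these results. In nuclear opacity it passed in 7 of 14 (difference -1.07 to -0.79, adjusted p 0.0111 to 0.172). As a slope on age it passed in 11 of 14 (-0.0789 to -0.0624 per week on the linear scale, adjusted p 0.00816 to 0.0913), and it passed on log2 of age and on its rank. Over left-out arrays it passed in 1 of 7 and 5 of 7. The 43 member results that missed the threshold stayed beyond it in all 609 alternatives (lowest adjusted p 0.0586). For the 14 other genes that were called or lay nearest to Maf, calls were lost in 120 of 416 alternatives, gained in 15, and no sign turned.

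Signs turned in 18 of 639 alternatives, all of uncalled values. In posterior subcapsular opacity, quantile normalization gave Pitx3 0.105, Six3 0.074, Mab21l1 0.065 and Prox1 0.049, and median centring gave Pitx3 0.11, Six3 0.072, Mab21l1 0.031 and Prox1 0.054. The median of all genes there was -0.13 as deposited, 0.03 after quantile normalization and 0.04 after centring. The other signs turned over left-out arrays. In nuclear opacity Pax6 lay between -0.241 and 0.031 (above 0 without the 2-week array), in cortical opacity Cdh1 between -0.307 and 0.029 (above 0 without the 4-week array), and in posterior subcapsular opacity Cdh1 between -0.001 and 0.335 and Pitx3 between -0.126 and 0.004 (signs turned without the 2-week array). For nuclear against cortical opacity, Six3 lay between -0.054 and 0.134, Prox1 between -0.006 and 0.177 (both below 0 without the 8-week array) and Foxe3 between -0.201 and 0.061 (above 0 without the 14-week array, where Six3 was -0.001). The slopes lay between -0.0179 and 0.0016 per week for Pax6 and between -0.0337 and 0.0005 for Sfrp1, above 0 without the 2-week array. The cause was not tested.

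Over all genes, 315 passed in nuclear opacity, of which 33.3% were higher. The count was 406 at a floor of 6, 466 after quantile normalization (45.5% higher), 493 after median centring (44.8%), 480 with a trended and robust prior, 0 with dim genes tested, and 0 to 316 over left-out arrays. In the age trend it was 449 (42.1% higher), 112 with dim genes tested, 623 after quantile normalization (52.2%), 648 after median centring, 602 with array weights (30.6%), 620 on log2 of age (29.4%) and 95 to 570 over left-out arrays. In cortical opacity 0 passed, against 12 at a floor of 6 or with the trended prior, 3 after centring and 1 after quantile normalization. In posterior subcapsular opacity 0 passed, against 93 with the trended prior, 28 at a floor of 6, 23 under either scaling and 1 with weights. Between nuclear and cortical opacity it was 1, and 0 to 3 elsewhere. No cluster carried a regulator beside other symbols, so that alternative gave no value.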
